A study of Mus musculus with 10 samples.

Results

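The genes described here encode the proteasome, its assembly chaperones and its activators, measured in the hippocampus of Tshr-/- and wild-type (WT) mice. They were chosen by symbol: protein-coding genes named Psma to Psmg followed by a number, with a mean of at least 0.5 FPKM (fragments scaled for gene length and library depth) over all libraries. Of 52636 genes in the deposited table, 50 coding genes had such a symbol, 48 passed the limit, and these 48 stood among 15471 genes that were tested. Psmb9 lay just inside the limit with a mean of 0.582 FPKM. The genes left out were Psma8, an alpha subunit of the testis, with a mean of 0.142 FPKM, and Psmb11, a beta subunit of the thymus, with a mean of 0.0545 FPKM.

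Tshr encodes the receptor for thyroid-stimulating hormone, which drives the thyroid gland, and the series addressed spatial learning and memory in mice that lack it. The 5 Tshr-/- and 5 WT libraries came from hippocampal RNA of C57BL/6 mice aged 3 months, with the genotype as the labelled difference between the groups. The labels call them biological replicates without saying whether each was 1 mouse, which piece of Tshr was deleted, or whether thyroid hormone was given, so p-values measure the spread between these libraries. They also name no littermates, so background differences that travel with the Tshr allele cannot be told apart from the genotype; 3 of the 48 genes lay on chromosome 12 with Tshr, of which Psmc1 was the nearest, at 8.56 Mb.

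The proteasome is the large protease that destroys proteins marked with ubiquitin. Its core particle is a barrel of stacked rings, in which alpha subunits form the gate and 3 kinds of beta subunit cut proteins. The regulatory particle caps the barrel: its base holds the ATPases that unfold a substrate, and its lid removes the ubiquitin. Interferons induce the immunoproteasome subunits Psmb8, Psmb9 and Psmb10, which replace the constitutive catalytic subunits Psmb5, Psmb6 and Psmb7 and change which peptides are made for presentation on MHC class I. In neurons, degradation by the proteasome takes part in synaptic plasticity.

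No proteasome gene passed the test for a difference between Tshr-/- and WT hippocampus. With limma on log2(FPKM + 0.1) and Benjamini-Hochberg adjustment over all tested genes, 0 of the 48 genes had an adjusted p below 0.05, against 0.0129% of all tested genes. A second test on reads rebuilt from the FPKM, limma voom, also called 0 of the 48, and the same 0.0129% of all tested genes. It used the authors' library sizes and so kept the scaling of the FPKM. At an unadjusted p below 0.05 there was 1 gene, Psmd10, where 13.0% of all tested genes passed. In none of the 48 did the 5 Tshr-/- libraries lie wholly above or below the 5 WT libraries, which held for 2.68% of all tested genes.

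All differences below are log2(FPKM + 0.1) in Tshr-/- minus WT, and the added 0.1 shrinks those of genes with few reads. The median difference of the 48 genes was 0.0025, against -0.010 for all tested genes. By sign, 24 were higher and 24 lower in Tshr-/-, where 46.7% of all tested genes were higher. That split moved with the scaling: 37 of 48 were higher after quantile normalization, and 41 of 48 when reads were scaled by library totals, which shifted the median of all tested genes to 0.059. Under both scalings the medians of the base ATPases, the lid, and the structural and constitutive catalytic beta subunits, negative below, were positive. The median size of a difference, whatever its sign, was 0.049 for the 48 genes and 0.10 for all tested genes.

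Precision was high for most of these genes. Their median standard error was 0.062, against 0.10 over all tested genes. The 95% interval of the difference stayed within 1.5-fold in either direction for all 48 genes under this fit, and within 1.25-fold for 42. The exceptions to the narrower limit were Psmb8, Psmb9, Psmd10, Psmg4, Psme2b and Psmc3ip. Summed over the 48 genes, the level was 1301 ± 35.3 FPKM in Tshr-/- and 1318 ± 51.6 FPKM in WT (SD, n = 5 each).

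**Figure D1:**
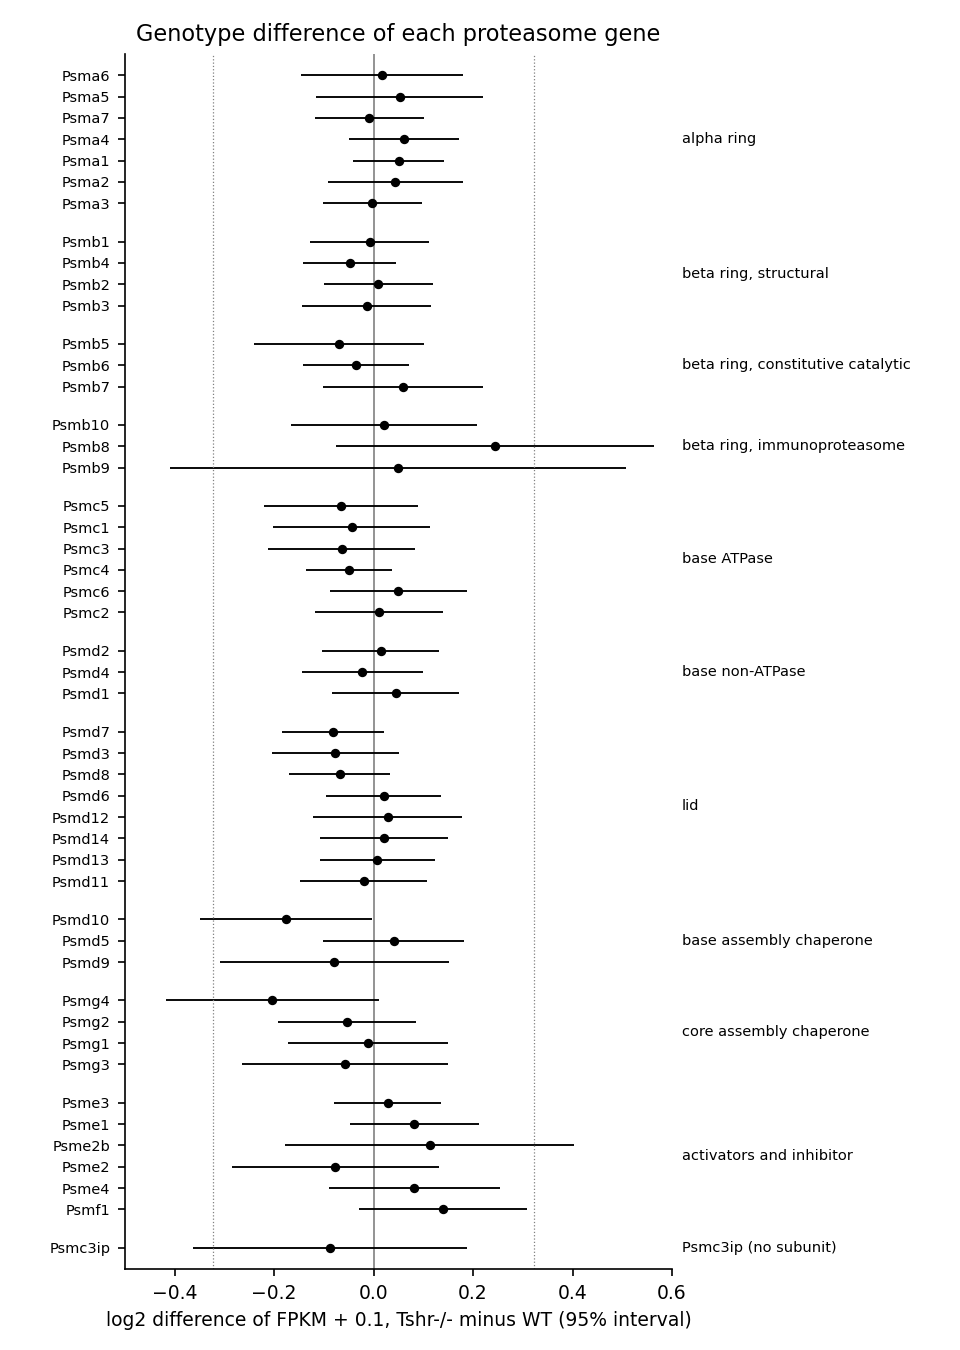
Difference in transcript level of each of the 48 genes, Tshr-/- minus WT, on the log2(FPKM + 0.1) scale; points are limma estimates over 5 libraries per genotype and lines their 95% intervals. Dotted lines mark 1.25-fold in either direction. The interval of Psmd10 alone leaves out 0, and it does so before adjustment for the number of genes tested.

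The libraries yielded 25744854 to 28332278 rebuilt reads in Tshr-/- and 23899650 to 33529811 in WT. Tshr had 7 reads in all Tshr-/- libraries together and 32 in all WT libraries, a mean of 0.00861 ± 0.0136 against 0.0371 ± 0.0221 FPKM (SD, n = 5 each; exact permutation p = 0.0556, 2-sided, where 0.00794 is the smallest possible). With 1 library left out, the permutation p was lowest, at 0.0317, without Tshr-/- library 4, WT library 4 or WT library 5. The highest permutation p in these runs was above 0.0556. The tissue content of the libraries varied. The choroid plexus marker Ttr had 2189 FPKM in Tshr-/- library 4 and between 0.830 and 84.1 FPKM in the others. All 8 dentate granule neuron markers were lower in Tshr-/- at an unadjusted p below 0.05 (limma), against 8.38% of all tested genes, and 0 were called. Their summed levels were 66.4 to 104 FPKM in Tshr-/- and 116 to 164 FPKM in WT. Of 7 CA1 pyramidal neuron markers 6 were lower, 4 of them at that limit, and 0 were called. The part of these shifts in the proteasome values was not tested. In bulk tissue fewer cells of a type and less RNA per cell cannot be told apart. Among the 3 Tshr-/- and 3 WT libraries lowest in thalamic transcripts, compared after the data were seen, 0 of the 48 genes were called. Of all 15482 genes tested there, 3 were called, so so small a count says little about the 48. Tshr-/- library 4 was among these libraries.

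Levels spanned a wide range and differed by the role of the gene. The median of the 48 genes was 22.0 FPKM over all libraries, and 42 of them lay above the median of all tested genes, 5.05 FPKM. Psmc5, an ATPase of the base, was the most abundant, and Psmb9, a catalytic subunit of the immunoproteasome, the least. The constitutive core and regulatory particles had subunits between 6.76 and 103 FPKM in Tshr-/- and between 6.87 and 108 FPKM in WT. The assembly chaperones of the core stood at 1.44 to 12.1 FPKM in Tshr-/- and 1.502 to 13.3 FPKM in WT.

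**Figure D2:**
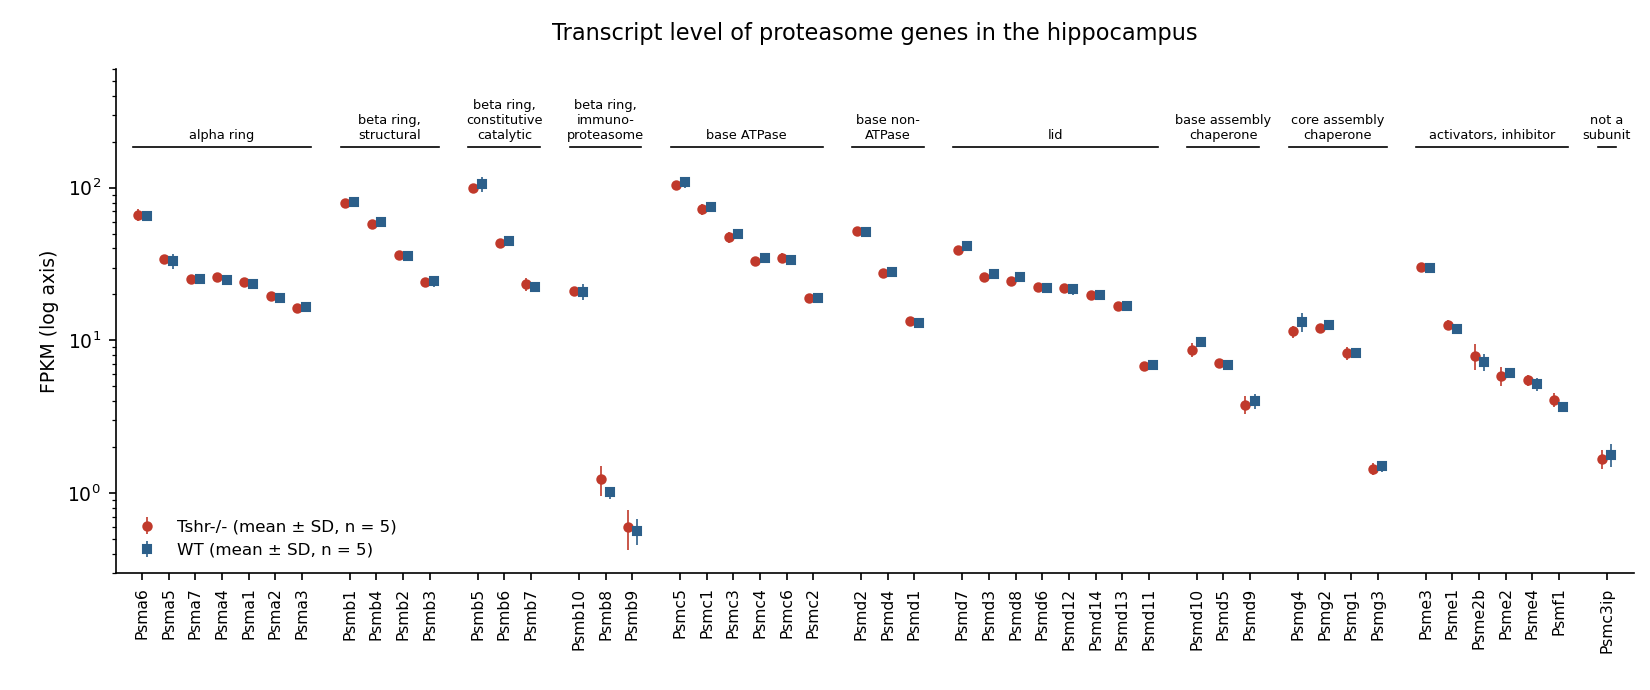
Transcript level of the 48 genes in FPKM on a log axis, grouped by role, as mean ± SD of 5 Tshr-/- libraries (circles) and 5 WT libraries (squares). The means of the genotypes differ most for Psmb8, by 0.24 on the log2(FPKM + 0.1) scale, and for Psmg4, by -0.20. Psmb8 and Psmb9, with means of 0.566 to 1.23 FPKM, stand far below the other catalytic subunits.

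FPKM depends on the gene length used, and this bears on the order of the levels. The deposited length equalled the union of all annotated exons in GENCODE vM21 for 41 of the 48 genes, and it was up to 3.36 times the length of the principal coding transcript, with a median of 1.62 times. Per length of the principal transcript, the constitutive core subunits with a usable length ran from 22.5 to 104 FPKM in WT, and Psma7, a subunit of the alpha ring, stood at 84.7 FPKM in Tshr-/- and 85.2 FPKM in WT rather than at 25.2 and 25.4. The correction scales both genotypes alike and leaves every difference between them as it was.

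Because the catalytic subunits that share a position differed widely in level, the 250 bases before the RefSeq start site (build GRCm38.p6) are shown for some of them. The genes shown are Psmb6 and its replacement Psmb9, and Psmb5 and its replacement Psmb8. Capitals mark matches to the antioxidant response element core TGACNNNGC, which binds factors of the Nfe2l1 family, and to the CCAAT box, searched on both strands, so that CCAAT can appear as ATTGG.
Psmb6, chr11:70525107-70525356, plus strand: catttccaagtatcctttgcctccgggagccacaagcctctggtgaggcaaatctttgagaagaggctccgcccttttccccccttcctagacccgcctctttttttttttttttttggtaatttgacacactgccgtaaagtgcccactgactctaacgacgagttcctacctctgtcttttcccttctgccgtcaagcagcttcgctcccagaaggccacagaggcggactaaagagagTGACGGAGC
Psmb9, chr17:34187331-34187580, minus strand: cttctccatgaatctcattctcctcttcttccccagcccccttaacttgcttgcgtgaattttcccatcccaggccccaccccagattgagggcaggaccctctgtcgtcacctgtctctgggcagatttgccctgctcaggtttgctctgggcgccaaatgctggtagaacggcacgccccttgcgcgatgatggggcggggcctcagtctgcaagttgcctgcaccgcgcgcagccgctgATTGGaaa
Psmb5, chr14:54617996-54618245, minus strand: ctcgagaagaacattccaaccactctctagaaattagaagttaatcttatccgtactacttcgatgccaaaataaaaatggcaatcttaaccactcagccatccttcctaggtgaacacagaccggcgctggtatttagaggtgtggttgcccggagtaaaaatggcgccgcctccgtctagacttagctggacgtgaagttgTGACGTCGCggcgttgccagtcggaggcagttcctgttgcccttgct
Psmb8, chr17:34197945-34198194, plus strand: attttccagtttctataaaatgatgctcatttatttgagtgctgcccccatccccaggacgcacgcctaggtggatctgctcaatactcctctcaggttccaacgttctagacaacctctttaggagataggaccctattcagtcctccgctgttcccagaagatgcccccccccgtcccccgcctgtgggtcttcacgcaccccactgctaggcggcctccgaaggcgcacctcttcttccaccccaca
Psmb6 and Psmb5 each held the antioxidant response element core, Psmb9 held a CCAAT box, and Psmb8 held none of the motifs searched. For Psmb9 and Psmb8 the RefSeq start lay 434 and 405 bases downstream of the start of the principal GENCODE transcript. Their windows thus lie inside the annotated gene and not before that start. Motifs in them cannot be set against those of Psmb6 and Psmb5 on equal terms.

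Among the 48 genes, 41 had a promoter sequence. The antioxidant response element core was found in 5 of the 41 (12.2%: Psmb5, Psmb6, Psmc6, Psmd12 and Psmd9) and in 10.2% of all 32851 promoters. The interferon-stimulated response element core GAAANNGAAA was found in 3 of the 41 (7.32%: Psmb3, Psmd4 and Psmd9) and in 2.98% of all promoters. The CCAAT box was found for 14 of the 41 (34.1%) and in 33.9% of all promoters. The 41 were counted per gene, by a match in any promoter of the gene, and all promoters singly. A gene with several promoters therefore had more chances of a match, so the shares are not on equal terms. The cyclic AMP response element TGACGTCA and the YY1 core AAGATGGC were in none of the 41, and in 1.55% and 1.57% of all promoters. A match to these letters is a description and not a site.

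The alpha ring, whose 7 subunits gate the barrel, had 5 genes higher and 2 lower in Tshr-/-, with a median difference of 0.044, and 0 passed the test. Psma4 had the smallest p of the ring. Its level was 27.9, 25.0, 25.6, 26.2 and 24.8 FPKM in Tshr-/- libraries 1 to 5, against 25.3, 26.1, 23.1, 24.9 and 24.7 FPKM in WT libraries 1 to 5. The groups overlapped, with Tshr-/- library 1 highest and WT library 3 lowest, and the difference was 0.061 (limma, unadjusted p = 0.246, Benjamini-Hochberg adjusted p = 0.630). The other members of the ring had differences from -0.0082 for Psma7 to 0.053 for Psma5. Psma6 was the most abundant alpha subunit at 66.4 ± 6.16 FPKM in Tshr-/- and 65.5 ± 4.69 FPKM in WT (SD, n = 5 each), and Psma3 the least at 16.4 ± 0.697 and 16.4 ± 0.467 FPKM. Per length of the principal transcript Psma7 took the first place and Psma3 kept the last.

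The structural beta subunits Psmb1, Psmb2, Psmb3 and Psmb4 complete the inner rings without cutting proteins. Psmb2 was higher and the other 3 lower in Tshr-/-, with a median difference of -0.011, and 0 passed the test. Psmb4, with the smallest p of the group, had 56.2, 58.6, 58.3, 58.4 and 58.6 FPKM in Tshr-/- libraries 1 to 5, against 63.4, 58.6, 59.3, 57.2 and 61.5 FPKM in WT libraries 1 to 5. Tshr-/- library 1 was lowest and WT library 1 highest, and the ranges overlapped between 57.2 and 58.6 FPKM. The difference of -0.048 had an adjusted p of 0.661 (limma, Benjamini-Hochberg). Psmb4 was also the steadiest member in Tshr-/-, with a coefficient of variation of 1.78%, and 4.10% in WT.

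The constitutive catalytic subunits are the 3 beta subunits whose active sites do the cutting. Psmb5 and Psmb6 were lower and Psmb7 higher in Tshr-/-, with a median of -0.035, and 0 passed the test. Psmb5, the chymotrypsin-like site (ENSMUSG00000022193, chr14:54614120-54617995, minus strand, mm10), had 95.2, 95.8, 107, 98.2 and 104 FPKM in Tshr-/- libraries 1 to 5, against 88.3, 107, 119.5, 101 and 111 FPKM in WT libraries 1 to 5. WT libraries held both the lowest and the highest value, so the WT range enclosed the Tshr-/- range. The difference was -0.069, with a 95% interval of 0.847 to 1.07-fold (limma, Benjamini-Hochberg adjusted p = 0.740). It was -0.13 without WT library 1 and -0.021 without WT library 3.

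Psmb6, the caspase-like site (ENSMUSG00000018286, chr11:70525367-70527858, plus strand, mm10), had 41.6, 43.4, 44.5, 42.7 and 44.9 FPKM in Tshr-/- libraries 1 to 5, against 48.4, 42.9, 45.3, 42.4 and 43.7 FPKM in WT libraries 1 to 5. The groups overlapped except for WT libraries 1 and 3, which lay above every Tshr-/- library, and Tshr-/- library 1, which lay below every WT library. Its difference was -0.035 (limma, Benjamini-Hochberg adjusted p = 0.795). Psmb7, the trypsin-like site (ENSMUSG00000026750, chr2:38588036-38644087, minus strand, mm10), had 25.0, 25.9, 21.2, 20.8 and 23.4 FPKM in Tshr-/- libraries 1 to 5, against 22.7, 24.1, 22.6, 20.2 and 21.8 FPKM in WT libraries 1 to 5. Tshr-/- libraries 1 and 2 were above every WT library, while the other 3 lay inside the WT range. The difference was 0.059 (limma, Benjamini-Hochberg adjusted p = 0.769), and the libraries carry no strand mark, so reads of Nek6, which overlaps 11.8% of the exons of Psmb7 in antisense, cannot be told apart there.

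The immunoproteasome subunits were uneven in level: Psmb10 stood among the constitutive subunits, while Psmb8 and Psmb9 were near the limit of 0.5 FPKM. All 3 were higher in Tshr-/- by their means, with a median of 0.049, and 0 passed the test. Psmb9 turned lower without Tshr-/- library 4, at -0.088, without WT library 2, at -0.045, and after quantile normalization, at -0.037. Psmb10 turned lower without Tshr-/- library 5, WT library 4 or WT library 5, at -0.013, -0.038 and -0.012, so the shared sign did not hold under every setting.

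Psmb8, the replacement for Psmb5 (ENSMUSG00000024338, chr17:34197721-34201454, plus strand, mm10), had 1.38, 1.01, 0.972, 1.61 and 1.17 FPKM in Tshr-/- libraries 1 to 5, against 1.07, 1.08, 0.860, 1.06 and 0.969 FPKM in WT libraries 1 to 5. Tshr-/- libraries 1, 4 and 5 were above every WT library, and Tshr-/- libraries 2 and 3 lay within the WT range. The mean was 1.23 ± 0.268 FPKM in Tshr-/- and 1.01 ± 0.0937 FPKM in WT (SD, n = 5 each). The difference of 0.24 was the largest upward one among the 48 genes, with a standard error of 0.145 and a 95% interval of 0.949 to 1.48-fold (limma, unadjusted p = 0.121, Benjamini-Hochberg adjusted p = 0.496). It rested on 54 to 118 reads per library, and it was 0.15 without Tshr-/- library 4.

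Psmb9, the replacement for Psmb6 (ENSMUSG00000096727, chr17:34181988-34187764, minus strand, mm10), had 0.456, 0.538, 0.498, 0.898 and 0.592 FPKM in Tshr-/- libraries 1 to 5, against 0.553, 0.406, 0.619, 0.540 and 0.713 FPKM in WT libraries 1 to 5. Tshr-/- library 4 stood above all others, and the remaining Tshr-/- libraries lay within the WT range. Its difference was 0.049, with a 95% interval of 0.753 to 1.42-fold from 48 to 88 reads per library (limma, Benjamini-Hochberg adjusted p = 0.943). Psmb9 shares 212 exonic bases, 5.79% of its length, with Tap1, which runs the other way, and without a strand mark reads from there cannot be told apart. Tap1, a peptide transporter that feeds MHC class I, had 1.17 FPKM in Tshr-/- library 4, its highest value too.

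Psmb10, the replacement for Psmb7 (ENSMUSG00000031897, chr8:105935735-105938444, minus strand, mm10), had 20.4, 22.1, 19.7, 20.1 and 23.1 FPKM in Tshr-/- libraries 1 to 5, against 23.3, 22.3, 22.0, 17.6 and 18.9 FPKM in WT libraries 1 to 5. The Tshr-/- libraries lay wholly inside the WT range, whose low end was made by WT libraries 4 and 5. The difference was 0.021 (limma, Benjamini-Hochberg adjusted p = 0.939).

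**Figure D3:**
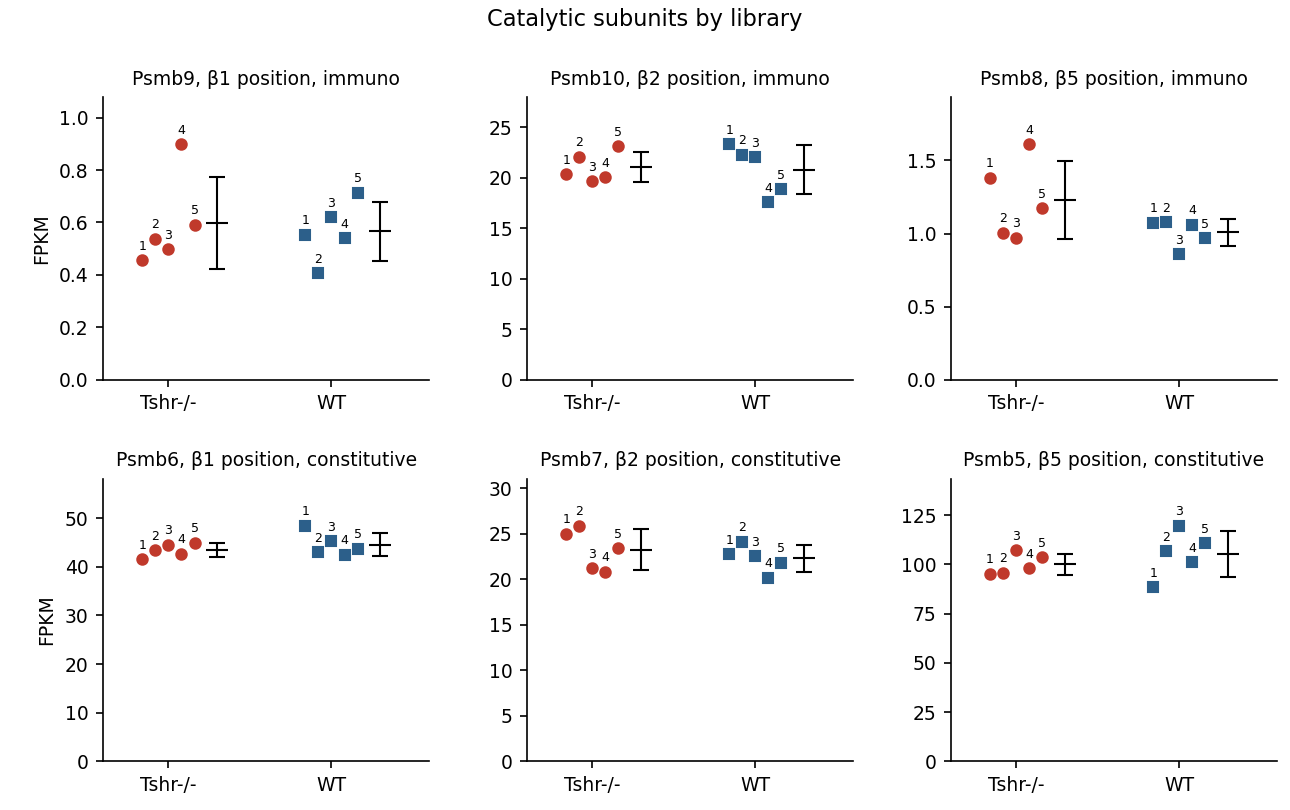
FPKM of the 3 immunoproteasome subunits (top) and the constitutive subunits they replace (bottom), one panel per gene, each with an axis from 0; points are libraries numbered 1 to 5, with the mean ± SD of the 5 libraries beside them. Tshr-/- (circles) stands left of WT (squares). Library 4 is the highest Tshr-/- point for Psmb8 and Psmb9, at 1.61 and 0.898 FPKM, and among the lower ones for Psmb10, at 20.1 FPKM.

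Set against its constitutive partner, no immunoproteasome subunit had a share whose libraries were apart between the genotypes. Psmb8 stood at 1.24% ± 0.301 of Psmb5 in Tshr-/- and 0.973% ± 0.187 in WT (SD, n = 5 each). Its libraries overlapped, at 0.908% to 1.64% in Tshr-/- against 0.720% to 1.22% in WT. Psmb9 stood at 1.38% ± 0.416 of Psmb6 in Tshr-/- and 1.27% ± 0.256 in WT. Psmb10 differed from both, with 90.9% ± 7.30 of Psmb7 in Tshr-/- and 93.2% ± 6.92 in WT. All 3 shares depended on gene length. Per length of the principal transcripts the share of Psmb10 was 40.1% ± 3.22 in Tshr-/- and 41.1% ± 3.05 in WT. Likewise Psmb9 stood at 1.59% ± 0.480 and 1.47% ± 0.295, and Psmb8 at 2.15% ± 0.522 and 1.69% ± 0.324. For Psmb5 the deposited length was shorter than the principal transcript.

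The base of the regulatory particle holds 6 ATPases, Psmc1 to Psmc6, which unfold substrates and feed them into the core. Of these, 2 were higher and 4 lower in Tshr-/-, with a median of -0.046, and 0 passed the test. Psmc5, the most abundant of the 48 genes (ENSMUSG00000020708, chr11:106256154-106263120, plus strand, mm10), had 109, 110.3, 99.4, 93.2 and 106 FPKM in Tshr-/- libraries 1 to 5, against 117, 114, 108, 94.2 and 109 FPKM in WT libraries 1 to 5. Library 4 was the lowest of each genotype, and the ranges overlapped over most of their length. The difference was -0.066 (limma, Benjamini-Hochberg adjusted p = 0.723).

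Psmc4 had the smallest p of the ATPases and the narrowest spread in WT, a coefficient of variation of 1.75%. It had 33.0, 31.6, 33.5, 34.0 and 34.1 FPKM in Tshr-/- libraries 1 to 5, against 35.1, 33.8, 34.8, 33.8 and 34.5 FPKM in WT libraries 1 to 5. Tshr-/- libraries 1, 2 and 3 were below every WT library, and Tshr-/- libraries 4 and 5 were inside the WT range. The difference of -0.049 had an adjusted p of 0.621 (limma, Benjamini-Hochberg). Psmc1 averaged 72.7 ± 5.98 FPKM in Tshr-/- and 74.9 ± 5.76 FPKM in WT, and Psmc2, the least abundant ATPase, 19.0 ± 0.942 and 18.9 ± 1.28 FPKM (SD, n = 5 each). Per length of the principal transcript the span of the ATPases in WT narrowed to 2.22-fold over the 5 with a usable length, against 5.74-fold over all 6 by the deposited length.

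Among the other base subunits, the scaffolds Psmd1 and Psmd2 were higher and the ubiquitin receptor Psmd4 lower in Tshr-/-, with a median of 0.014, and 0 passed the test. Psmd1 had the smallest p, with 13.9, 14.4, 12.8, 12.5 and 12.9 FPKM in Tshr-/- libraries 1 to 5, against 13.0, 13.8, 12.3, 12.1 and 13.3 FPKM in WT libraries 1 to 5. Tshr-/- libraries 1 and 2 exceeded every WT library and the other 3 did not. Its difference was 0.045 (limma, Benjamini-Hochberg adjusted p = 0.780). Psmd2 averaged 51.9 ± 1.78 FPKM in Tshr-/- and 51.5 ± 3.23 FPKM in WT (SD, n = 5 each).

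The lid had 4 genes higher and 4 lower in Tshr-/-, with a median of -0.0059, and 0 of the 8 passed the test. Psmd7, the inactive partner of the lid's deubiquitinase, had the smallest p, with 38.8, 37.1, 40.9, 38.4 and 40.9 FPKM in Tshr-/- libraries 1 to 5, against 42.4, 40.5, 43.5, 39.5 and 41.6 FPKM in WT libraries 1 to 5. Tshr-/- libraries 1, 2 and 4 were below every WT library, and Tshr-/- libraries 3 and 5 were inside the WT range. The difference was -0.082, with a 95% interval of 0.880 to 1.01-fold (limma, unadjusted p = 0.108, Benjamini-Hochberg adjusted p = 0.482). Psmd14, the deubiquitinase itself, averaged 19.9 ± 0.875 FPKM in Tshr-/- and 19.7 ± 1.42 FPKM in WT (SD, n = 5 each). Psmd3 and Psmd8 had the next largest differences, -0.077 and -0.068, and Psmd11 was the least abundant subunit of the lid, at 6.76 ± 0.203 FPKM in Tshr-/- and 6.87 ± 0.503 FPKM in WT.

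Assembly of the base is guided by the chaperones Psmd5, Psmd9 and Psmd10, which are not part of the finished particle. Psmd10, also known as gankyrin (ENSMUSG00000031429, chrX:140948429-140956728, minus strand, mm10), had the smallest p of the 48 genes. It had 8.84, 10.1, 7.47, 8.49 and 8.48 FPKM in Tshr-/- libraries 1 to 5, against 10.7, 9.78, 9.64, 8.81 and 10.01 FPKM in WT libraries 1 to 5. Tshr-/- libraries 3, 4 and 5 were below every WT library, Tshr-/- library 2 reached into the upper WT range, and WT library 4 was the lowest of its group. The mean was 8.67 ± 0.929 FPKM in Tshr-/- and 9.78 ± 0.672 FPKM in WT (SD, n = 5 each). The difference was -0.18, a 95% interval of 0.785 to 0.998-fold (limma, unadjusted p = 0.0477, Benjamini-Hochberg adjusted p = 0.378). At that unadjusted limit 8.38% of all tested genes were lower in Tshr-/-, against 1 of the 48 genes here. Psmd5 differed by 0.040 and Psmd9 by -0.079.

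Assembly of the core is guided by Psmg1, Psmg2, Psmg3 and Psmg4. All 4 were lower in Tshr-/-, with a median of -0.055, and 0 passed the test; scaled by library totals, their median was 0.010. Psmg4 (ENSMUSG00000071451, chr13:34162964-34178173, plus strand, mm10) had the largest downward difference of the 48 genes, with 10.7, 11.6, 10.1, 12.4 and 12.4 FPKM in Tshr-/- libraries 1 to 5, against 16.7, 12.8, 12.2, 12.3 and 12.3 FPKM in WT libraries 1 to 5. WT library 1 stood far above the rest, and the other WT libraries overlapped Tshr-/- libraries 4 and 5. The difference was -0.20, a 95% interval of 0.749 to 1.01-fold (limma, unadjusted p = 0.0602, Benjamini-Hochberg adjusted p = 0.405), and it was -0.12 without WT library 1. Psmg1, Psmg2 and Psmg3 differed by -0.011, -0.053 and -0.057.

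The activators open the core without ATP, and Psmf1 binds and inhibits it. Of these 6 genes 5 were higher and 1 lower in Tshr-/-, with a median of 0.082, and 0 passed the test. Psme1 and Psme2 encode the activator that interferon induces together with the immunoproteasome. Psme1 (ENSMUSG00000022216, chr14:55578123-55581529, plus strand, mm10) had 11.8, 11.9, 13.6, 13.6 and 11.97 FPKM in Tshr-/- libraries 1 to 5, against 11.6, 12.2, 12.5, 11.3 and 11.7 FPKM in WT libraries 1 to 5. Tshr-/- libraries 3 and 4 were above every WT library and the other 3 were inside the WT range. Its difference was 0.082 (limma, Benjamini-Hochberg adjusted p = 0.574).

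Psme2 (ENSMUSG00000079197, chr14:55587441-55591113, minus strand, mm10) had 5.70, 6.89, 5.02, 5.08 and 6.51 FPKM in Tshr-/- libraries 1 to 5, against 6.79, 5.90, 5.88, 5.80 and 6.26 FPKM in WT libraries 1 to 5. Tshr-/- libraries 1, 3 and 4 were below every WT library, and Tshr-/- library 2 was above every WT library. The difference was -0.077 (limma, Benjamini-Hochberg adjusted p = 0.765), of opposite sign to that of its partner Psme1. The value of Psme2 is uncertain, because 44.5% of its 100-base stretches also occur in Psme2b on chromosome 11, a gene annotated as coding, and 52.0% of those of Psme2b occur in Psme2. Psme2b averaged 7.91 ± 1.55 FPKM in Tshr-/- and 7.26 ± 0.941 FPKM in WT (SD, n = 5 each), with a difference of 0.11.

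Psmf1 had the smallest p of these 6 genes, with 4.06, 3.83, 3.84, 3.82 and 4.86 FPKM in Tshr-/- libraries 1 to 5, against 3.58, 3.60, 3.65, 3.53 and 4.05 FPKM in WT libraries 1 to 5. WT library 5 was above 3 Tshr-/- libraries, and the other WT libraries were below all 5. Its difference was 0.14 (limma, unadjusted p = 0.0947, Benjamini-Hochberg adjusted p = 0.463), and it was 0.077 without Tshr-/- library 5. Psme3, the activator of the nucleus, averaged 30.4 ± 0.987 FPKM in Tshr-/- and 29.9 ± 1.57 FPKM in WT, and Psme4 5.47 ± 0.436 and 5.17 ± 0.508 FPKM (SD, n = 5 each).

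Psmc3ip met the symbol rule but is a cofactor of meiotic recombination and not a proteasome subunit. It had 1.63, 1.53, 1.505, 2.07 and 1.57 FPKM in Tshr-/- libraries 1 to 5, against 1.69, 2.31, 1.56, 1.57 and 1.77 FPKM in WT libraries 1 to 5. Tshr-/- library 4 and WT library 2 stood above the rest. The difference was -0.088 (limma, Benjamini-Hochberg adjusted p = 0.802), and Mlx on the opposite strand overlaps 21.2% of its exons. Without Psmc3ip, 24 of 47 genes were higher in Tshr-/-.

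Class averages moved little from library to library. Set against its own mean over all libraries, the alpha ring stayed between -0.039 and 0.072 in Tshr-/- and between -0.090 and 0.054 in WT, as the mean deviation of its 7 genes on the log2 scale. The base ATPases lay between -0.082 and 0.053 in Tshr-/- and between -0.10 and 0.10 in WT. Library 4 of each genotype was the lowest for these ATPases, and WT library 1 was the highest. The lid stayed between -0.037 and 0.038 in Tshr-/- and between -0.070 and 0.065 in WT, with the same WT libraries at its ends. In each of these classes the range of the WT libraries exceeded the gap between the genotypes.

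The immunoproteasome did not follow this pattern in Tshr-/- library 4. There its 3 genes averaged 0.34 above their means, where the other Tshr-/- libraries lay between -0.14 and 0.093 and the WT libraries between -0.12 and 0.030. This came from Psmb8 and Psmb9, at 1.61 and 0.898 FPKM, which had 48 to 118 reads per library. Psmb10, at 20.1 FPKM, was below its mean of 20.9 FPKM over all libraries. By mean log2 deviation, Tshr-/- library 4 was also the highest of all 10 for the lists of MHC class I presentation, interferon response, border macrophage, choroid plexus and meninges genes. Summed levels of the MHC class I list went the other way, at 280 to 309 FPKM in Tshr-/- and 311 to 320 FPKM in WT. The part of these lists in the values of Psmb8 and Psmb9 was not tested. The microglia list, by contrast, had its highest mean deviation in WT library 1. Its summed levels were 159 to 191 FPKM in Tshr-/- and 179 to 202 FPKM in WT. Of its 11 genes 2 were higher and 9 lower in Tshr-/-.

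**Figure D4:**
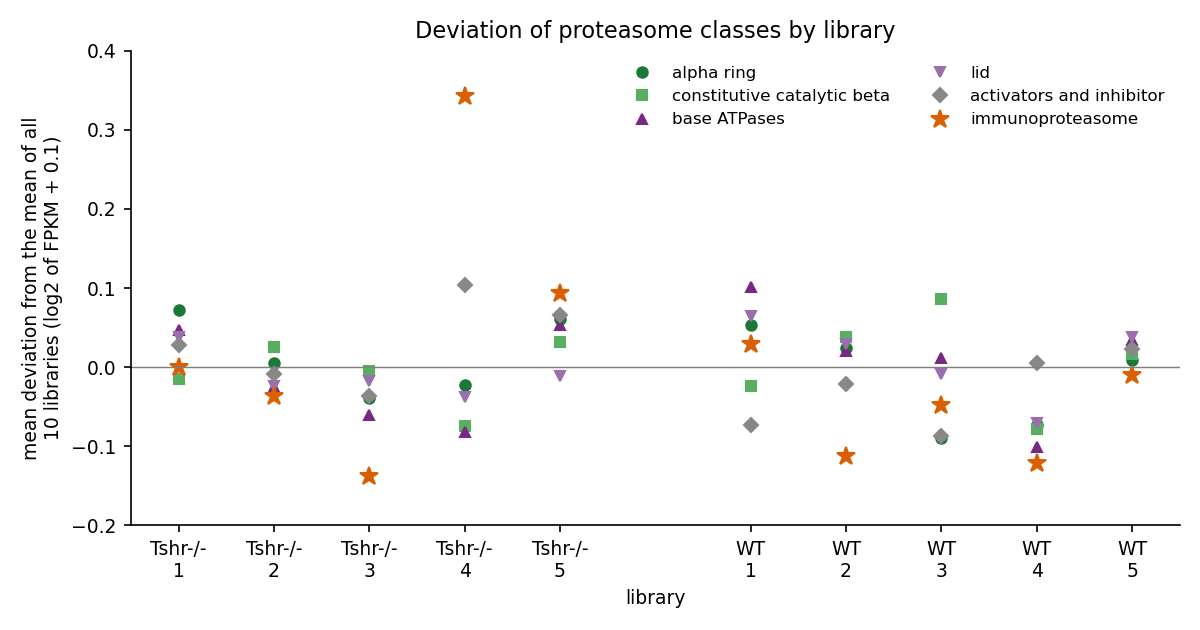
Mean deviation of 6 classes of proteasome genes from their own mean over all 10 libraries (vertical axis, log2 of FPKM + 0.1), for Tshr-/- libraries 1 to 5 (left) and WT libraries 1 to 5 (right). The immunoproteasome (stars) stands apart in Tshr-/- library 4 at 0.34, through Psmb8 and Psmb9, while Psmb10 was below its own mean there. The other 5 classes lie between -0.10 and 0.10 in every library.

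Spread between libraries was small for the constitutive genes. Over the 44 members other than the immunoproteasome and Psmc3ip, the median coefficient of variation was 6.06% in Tshr-/- and 6.33% in WT. The 11790 tested genes in the same range of levels, 1.47 to 106 FPKM, had medians of 9.82% in Tshr-/- and 8.68% in WT. That wide range holds most tested genes. Levels were not matched within it, so the part of level in this contrast was not tested. Psmb9 varied most of the 48, at 29.5% in Tshr-/- and 19.9% in WT.

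Proteasome genes with other symbols gave a like picture. Of 8 tested, 3 were higher and 5 lower in Tshr-/-, with a median of -0.028, and 0 were called. Usp14, a deubiquitinase that docks on the base, averaged 14.5 ± 1.16 FPKM in Tshr-/- and 13.0 ± 0.976 FPKM in WT (SD, n = 5 each), a difference of 0.16 (limma, unadjusted p = 0.0441, Benjamini-Hochberg adjusted p = 0.369). The core assembly factor Pomp differed by -0.054 and the ubiquitin receptor Adrm1 by -0.14.

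Regulators of proteasome genes were 3 higher and 5 lower in Tshr-/-, with a median of -0.016 and 0 called. Nfe2l1, the transcription factor that raises proteasome genes when proteasome activity is short, averaged 63.0 ± 4.36 FPKM in Tshr-/- and 68.5 ± 4.02 FPKM in WT (SD, n = 5 each), a difference of -0.12 (limma, unadjusted p = 0.0705, Benjamini-Hochberg adjusted p = 0.421). Ddi2, the protease that activates Nfe2l1, had 7.49, 7.30, 8.08, 7.41 and 6.98 FPKM in Tshr-/- libraries 1 to 5, against 8.63, 8.23, 7.80, 8.20 and 8.82 FPKM in WT libraries 1 to 5. Only Tshr-/- library 3 reached into the WT range, and the difference was -0.16 (limma, unadjusted p = 0.0135, Benjamini-Hochberg adjusted p = 0.268). Stat3 differed by -0.044.

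Ubiquitin genes, ubiquitin-activating enzymes and the factors that carry substrates to the proteasome were 3 higher and 10 lower of 13, with a median of -0.084 and 0 called. Ubqln4, a shuttle factor, averaged 31.4 ± 4.44 FPKM in Tshr-/- and 37.5 ± 3.68 FPKM in WT (SD, n = 5 each), a difference of -0.26 (limma, unadjusted p = 0.0220, Benjamini-Hochberg adjusted p = 0.308). The fusion gene Rps27a differed by 0.53, with 58.4 FPKM in Tshr-/- library 4 and 35.8 FPKM in Tshr-/- library 3, and between 17.3 and 23.3 FPKM in all other libraries.

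The genes that use the products of the immunoproteasome, for MHC class I presentation, were 7 higher and 3 lower of 10 tested, with a median of 0.081 and 0 called. Calr, a chaperone of peptide loading and of the endoplasmic reticulum at large, averaged 78.0 ± 3.49 FPKM in Tshr-/- and 101 ± 6.15 FPKM in WT (SD, n = 5 each). Its libraries did not overlap, at 73.3 to 82.0 FPKM in Tshr-/- and 94.8 to 110 FPKM in WT, and the difference of -0.37 stood at the threshold (limma, Benjamini-Hochberg adjusted p = 0.0502). Pdia3 differed by -0.13 and the class I heavy chain gene H2-D1 by 0.20.

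Interferon-response genes had a positive log2 difference in 12 of 12, with a median of 0.44 and the smallest, 0.00091, for Stat2. Of all tested genes, 46.7% were higher. Irf7 passed the limit of 0.5 FPKM through Tshr-/-, with a mean of 0.804 FPKM against 0.457 FPKM in WT. Of the 12, 6 had an unadjusted p below 0.05, against a background of 4.65%, and 0 were called. Gbp3, an interferon-induced GTPase, had 1.33, 1.58, 2.05, 1.94 and 2.05 FPKM in Tshr-/- libraries 1 to 5, against 0.830, 1.03, 0.881, 1.33 and 1.46 FPKM in WT libraries 1 to 5. Its groups overlapped by Tshr-/- library 1 alone, and the difference was 0.66 (limma, unadjusted p = 0.0034, Benjamini-Hochberg adjusted p = 0.194). Ifit3 and Ifit1 differed by 0.47 and 0.66. The immunoproteasome subunits, which interferon also induces, had differences of 0.24, 0.049 and 0.021 beside these.

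Some marker lists of other cell types were higher in Tshr-/- along with the interferon-response genes, and others were not. In none of these lists was a gene called. Endothelium had 5 genes higher and 3 lower, oligodendrocytes 5 and 3, and astrocytes 3 and 4. Their medians were 0.072, 0.053 and -0.027. Dentate granule and CA1 pyramidal neuron markers, given above, were mainly lower. Markers of thalamus or habenula had positive differences in 9 of 9 tested, with a median of 0.61. Border macrophage and MHC class II genes were higher in 5 of 5 tested, with a median of 1.59 and summed levels over all 9 listed genes of 7.19 to 16.3 FPKM in Tshr-/- and 1.88 to 5.94 FPKM in WT. Genes of the meninges were higher in 8 of 8, with a median of 0.78 and sums of 13.6 to 45.8 FPKM in Tshr-/- and 8.26 to 20.4 FPKM in WT. Genes of the ependyma, the lining of the ventricles, were higher in 7 of 7, with a median of 0.86 and sums of 7.99 to 29.0 FPKM in Tshr-/- and 7.27 to 14.8 FPKM in WT. Choroid plexus genes were higher in 9 of 10 tested, with a median of 1.19 and sums over all 11 listed genes of 48.9 to 2619 FPKM in Tshr-/- and 33.7 to 138 FPKM in WT. Of these, 0 had an unadjusted p below 0.05 (limma). Otx2, Cldn2, Kcne2, Folr1, Clic6 and Aqp1 passed the limit of 0.5 FPKM through Tshr-/- library 4, with WT means of 0.142 to 0.381 FPKM. H2-Aa, H2-Ab1, Slc22a6, Ak7 and the thalamic marker Zic4 passed through Tshr-/-. Their WT means were 0.189, 0.464, 0.477, 0.389 and 0.282 FPKM. The direction of all these genes was thus partly set by the filter. The part of these lists in the interferon-response and immunoproteasome values was not tested.

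Some values carry a limit from the gene models. Besides Psmb7 and Psmc3ip, Psmb5, Psmb8, Psmd9 and Psmd13 share over 10% of their exonic bases with another gene, and of the partners of these 4 only Sirt3, which overlaps Psmd13, was expressed at 1 FPKM or more. In 10 of the 48 genes over 10% of the 100-base stretches also occur in another annotated gene, among them Psma5 with 27.5%, Psmb5 with 24.9% and Psma3 with 20.6%. How the authors treated reads with several matches is not recorded in the sources used here.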

How the data were processed

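Hippocampal RNA of 5 Tshr-/- and 5 WT libraries was sequenced after preparation with a kit that does not mark strand, per the labels' protocols. The submitters' processing notes name HISAT2 2.0.5, the mm10 build and featureCounts 1.5.0-p3. The deposited table holds FPKM values, which the authors scaled for library size and gene length, for 52636 genes; neither the annotation release nor the source of the library sizes is recorded in the sources used here. Multiplied by gene length, 100% of the values were whole numbers of reads (tolerance 0.01 of a read), and these reads served as an alternative.

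Genes with a mean of at least 0.5 FPKM were fitted as log2(FPKM + 0.1) with limma 3.58.1 in R 4.3.3 (genotype as the model, empirical Bayes with a variance trend, Benjamini-Hochberg over 15471 genes, called below an adjusted p of 0.05), and the steps were tested on simulated reads. FPKM carries no counting error of its own, so precision is given by the spread between libraries. Median-ratio size factors computed on the deposited FPKM were 1 in every library.

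The members and gene lists were chosen with earlier results of these data known. Named with values per library were the immunoproteasome genes, Psmb5, Psmb6, Psmb7, Psme1, Psme2, members at an unadjusted p below 0.05, the smallest p of every other class and the most and least abundant member, with up to 3 genes of the smallest p in each pathway list named by library or by mean, range or difference, of which 1 is not reported here. Tap1 was chosen for its overlap with Psmb9. Ttr, Stat2 and the genes named for passing the limit through their higher group were chosen after their values were seen. Gene models came from GENCODE vM21, whose coordinates matched those of 43 of the 48 genes, and promoters from RefSeq (GRCm38.p6). Alternatives were other pseudocounts, filters, scalings, variance models and weights, coding genes alone, a replicate block, limma voom and each library left out. A comparison of 6 libraries, the principal transcript length and library totals were added after seeing the data.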

Additional observations from a re-analysis of the deposited data

Results flagged for a closer look

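In 9 of 96 groups of 5 libraries, 1 library stood far from the rest of its genotype: its gap to the nearest other library was over 0.71 of the whole range of the group. Chance gives about 1 in 20 such groups. The proteasome subunit Psmb4 was lowest in Tshr-/- library 1, at 56.2 FPKM with 58.3 FPKM the next (gap over range 0.877). The lid deubiquitinase Psmd14 was highest in Tshr-/- library 1, at 21.5 FPKM with 19.7 FPKM the next (0.845), and the lid subunit Psmd8 lowest in Tshr-/- library 5, at 23.2 FPKM with 24.7 FPKM the next (0.774). The lid subunit Psmd13 was lowest in WT library 4, at 15.0 FPKM with 17.1 FPKM the next (0.845). The core assembly chaperone Psmg4 was highest in WT library 1, at 16.7 FPKM with 12.8 FPKM the next (0.871); its difference was -0.20 with this library and -0.12 without it.

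Psmf1, the inhibitor, was highest in library 5 of both genotypes, with 4.86 FPKM in Tshr-/- (0.766) and 4.05 FPKM in WT (0.762). Psmc3ip was highest in Tshr-/- library 4, at 2.07 FPKM (0.779), and in WT library 2, at 2.31 FPKM (0.721).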

How the results depend on the processing

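Under all 24 alternatives 0 of the 48 genes were called, and the lowest adjusted p among them lay between 0.251 and 0.608. Median-ratio scaling, counted among the 24, repeated the main fit because its size factors were 1. Genes called over the whole table numbered 14 with a pseudocount of 0.01, 4 without a filter on low values, 13 with a mean FPKM of at least 1, 5 after quantile normalization, 1 without a variance trend, 13 with robust empirical Bayes, 17 with coding genes alone, 9 with library totals and 0 to 9 with 1 library left out. Members at an unadjusted p below 0.05 numbered 2 after quantile normalization, 2 with array quality weights, 0 without a variance trend, 0 with limma voom, 3 with library totals and 0 to 1 with 1 library left out.

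Scaling moved the level of the whole set. After quantile normalization the median difference of the 48 genes was 0.056, with class medians of 0.10 for the alpha ring, 0.042 for the base ATPases, 0.082 for the other base subunits, 0.044 for the constitutive catalytic subunits, 0.073 for the structural beta subunits and 0.034 for the lid. With library totals the median was 0.072, with 0.11 for the alpha ring, 0.023 for the base ATPases, 0.084 for the other base subunits, 0.035 for the constitutive catalytic subunits, 0.057 for the structural beta subunits, 0.15 for the activators and inhibitor, 0.010 for the core assembly chaperones and 0.062 for the lid. Library totals rescale all genes of a library alike. The authors' library sizes were 1.001 to 1.058 times the rebuilt reads in Tshr-/- and 0.946 to 1.003 times in WT. The cause of the shift after quantile normalization was not tested.

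Of the 48 genes 37 were higher in Tshr-/- after quantile normalization and 41 with library totals, against 24 as reported. Among the genes given above by library, signs turned as follows. Quantile normalization gave Psmb9 -0.037, Psmb5 0.027, Psmb6 0.044, Psmc4 0.029, Psmb4 0.034 and Psmc5 0.032. Library totals gave Psmb5 0.0016, Psmb6 0.035, Psmc4 0.021, Psmb4 0.022 and Psmc5 0.0040. Array quality weights gave Psmb9 -0.0012 and Psmb10 -0.014. In the 6 libraries low in thalamic transcripts Psmb5 was 0.0091, Psmb7 -0.00028 and Psmc3ip 0.077. With 1 library left out, Psmb9 ran from -0.088 to 0.13, Psmb10 from -0.038 to 0.064 and Psmc3ip from -0.17 to 0.0052. Psmb6 ran from -0.052 to -0.0047, Psmb7 from 0.019 to 0.097, Psme2 from -0.14 to -0.026, Psmc5 from -0.12 to -0.029 and Psmd1 from 0.015 to 0.070. The exact permutation p of Tshr ran from 0.0317, without Tshr-/- library 4, WT library 4 or WT library 5, to 0.0794.

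The labels do not say that replicate numbers pair the libraries, and the correlations did not settle it. The correlation of same-numbered deviations ran from -0.065 to 0.296. For Tshr-/- libraries 2 and 4 the same-numbered WT library was the best match, and for 1, 3 and 5 it was not. With a replicate block 3 genes were called over the whole table, 0 of the 48, and the lowest adjusted p among the 48 was 0.348. Psmb8 and Psmb9, with 48 to 118 reads per library, were the members whose depth limits precision most.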
